A study of Mus musculus with 10 samples.

Results

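Expression of the replication-dependent histone genes was described in bone marrow B-cells of PAX5-ELN H2B-GFP mice. These are the protein-coding genes of the Hist1, Hist2, Hist3 and Hist4 clusters, found by their mouse GRCm38 symbols. The rule gave 67 genes of the 55573 rows of the count table. The labels give the same cell type, genotype, doxycycline treatment and a time of 35 days for all 10 libraries. The GFP high group (5 libraries) is labelled quiescent and the GFP low group (5 libraries) proliferating. PAX5-ELN is a fusion of a B-lineage transcription factor gene with the elastin gene that is known from B-cell leukemia. H2B-GFP is a fluorescent histone H2B that is diluted as cells divide once its synthesis has stopped, so a dividing cell loses GFP and a resting cell keeps it. The labels name no promoter for either transgene, no age, and no statement that libraries came from separate animals. P-values therefore measure only the spread between these samples, which may be technical.

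The 67 genes comprised 6 of the linker histone H1, 18 of H2A, 18 of H2B, 12 of H3 and 13 of H4. Of them, 54 lay in the Hist1 cluster on chromosome 13 (GRCm38, 21715763 to 23934851) and 10 in Hist2 on chromosome 3 (96219865 to 96270132). Hist3 on chromosome 11 (58948920 to 58956830) held an H2A and an H2B gene, and Hist4 on chromosome 6 (136801553 to 136804415) held 1 H4 gene.

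These genes supply the bulk of histone protein while DNA is copied. Their transcription takes place in nuclear histone locus bodies around the factor NPAT. Their main transcripts have no poly(A) tail: the RNA is cut just past a short stem-loop, which the stem-loop binding protein SLBP holds, and the transcripts are degraded when DNA synthesis stops. Some of the genes also give longer, polyadenylated transcripts that read past the stem-loop. The labels state that polyadenylated RNA was used, so the counts cover the part of histone RNA that this preparation captured, and the share of each kind of transcript was not measured.

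The stem-loop was found within 150 bases after the stop codon in 46 of the 67 genes, and in 49 of the 20846 genes with sequence there (0.235%). Some of the 67 have little or no annotated sequence after the stop codon, where a site cannot be seen. Of the 48 histone genes with at least 60 annotated bases there, 44 held the site. The search used GGNNCTTNTNANNNCC with 6 paired bases on each side of a loop of 4, on the transcript strand. H2afx, the gene of a variant histone, was among the 3 other genes. The sites of 9 genes whose values are described later are shown from the GENCODE M21 transcripts as DNA letters, with the 16 bases of stem and loop in capitals.
Hist1h1c: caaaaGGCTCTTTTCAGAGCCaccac
Hist1h2ab: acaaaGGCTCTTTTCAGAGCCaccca
Hist1h2ae: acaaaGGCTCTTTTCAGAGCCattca
Hist1h3g: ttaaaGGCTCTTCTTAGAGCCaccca
Hist1h4d: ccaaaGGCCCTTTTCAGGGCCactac
Hist1h4i: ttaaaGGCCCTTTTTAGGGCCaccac
Hist1h2bf: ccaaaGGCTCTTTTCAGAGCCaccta
Hist1h2bg: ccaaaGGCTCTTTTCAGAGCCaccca
Hist1h2bk: ccaaaGGCTCTTTTAAGAGCCactaa
One form, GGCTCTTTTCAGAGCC, was shared by 26 genes of the classes H1, H2A, H2B and H3 and by no H4 gene. The form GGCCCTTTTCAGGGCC was held by 7 genes, all of H4. The site began 21 to 58 bases after the stop codon, with a median of 31. Annotated transcripts of 23 genes ran at least 100 bases past the site, among them Hist1h1c with 840 bases, Hist1h4d with 770 and Hist3h2a with 1643. The annotated transcript of Hist1h1b held no untranslated sequence after the stop codon, so no site could be found there.

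Promoters (250 bases before to 50 bases after the start, RefSeq, GRCm38.p6) were matched for 62 of the 67 genes. The octamer ATTTGCAT, searched on both strands, stood in 7 of 18 H2A and 6 of 16 H2B promoters and in none of the H1, H3 and H4 promoters. It stood in 1.75% of all 27025 promoters. Promoters of neighbouring H2A and H2B genes can overlap, so the same site can count for both, as for Hist1h2ae and Hist1h2bg. CCAAT, on both strands, stood in every H1, H2A, H2B and H3 promoter matched and in 3 of 12 H4 promoters, against 37.9% of all promoters. TATAAA, on both strands, stood in 35 of the 62 promoters, against 14.2% of all. A match describes the letters and not a bound site. The 150 bases before the start of 4 genes are shown 5′ to 3′ in the direction of the gene, with these 3 motifs in capitals. Hist1h2ab, Hist1h1b and Hist1h4d are 3 of the genes that fell in GFP high, and Hist1h1c is the gene that lay higher in every pair with the highest level.
Hist1h2ab, chr13:23750938-23751087, plus strand: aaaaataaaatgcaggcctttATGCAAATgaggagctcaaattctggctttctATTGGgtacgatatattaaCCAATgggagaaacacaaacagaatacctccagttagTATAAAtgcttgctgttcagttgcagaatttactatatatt
Hist1h1b, chr13:21780626-21780775, minus strand: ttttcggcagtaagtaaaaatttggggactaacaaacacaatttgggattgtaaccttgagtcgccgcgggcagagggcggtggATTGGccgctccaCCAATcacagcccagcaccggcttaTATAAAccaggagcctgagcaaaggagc
Hist1h4d, chr13:23581418-23581567, plus strand: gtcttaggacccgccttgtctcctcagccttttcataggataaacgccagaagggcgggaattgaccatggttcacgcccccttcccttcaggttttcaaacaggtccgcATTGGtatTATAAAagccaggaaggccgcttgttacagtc
Hist1h1c, chr13:23738657-23738806, plus strand: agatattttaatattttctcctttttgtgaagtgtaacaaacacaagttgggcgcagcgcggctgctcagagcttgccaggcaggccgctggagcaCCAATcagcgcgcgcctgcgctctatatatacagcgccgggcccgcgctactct
Of these, the octamer stood in that of Hist1h2ab alone, and TATAAA was missing from that of Hist1h1c.

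The libraries held 10640894 to 14858520 counts each. On these totals, 3 counts in a library correspond to 0.202 to 0.282 CPM (counts scaled to a common library size), which covers counting error only. The other CPM values use library sizes rescaled by TMM normalization, on which 3 counts can lie somewhat outside this range. The histone genes together took 0.0238% to 0.0659% of the counts of a library. Across all genes, the first principal component (34.2% of the variance) separated the GFP groups and the second (20.5%) separated libraries 1 to 3 from libraries 4 and 5 of both groups. The labels name no batch, so results are given for both sets of libraries where they differ. Markers of B-cell progenitors summed to 11164 to 13031 CPM in GFP high and 8502 to 9560 CPM in GFP low, with 4 of 7 higher in GFP high by the test and all 7 with the replicate number as a block. Markers of T cells summed to at most 1.25 CPM, with Cd8a at 0 everywhere. Erythroid markers summed to 18.9 to 47.4 CPM in GFP high against 9.39 to 23.5 in GFP low (1 of 5 tested higher, 2 with the block), and monocyte and macrophage markers to 77.8 to 121 against 44.0 to 86.0 (1 of 3 tested higher, 3 with the block). Neutrophil markers summed to 3.58 to 9.87 against 2.81 to 7.18 CPM (none of 3 tested passed, S100a9 was higher with the block). Plasma cell markers summed to 622 to 1095 against 509 to 805 (2 of 5 higher, 1 lower, and 4 higher and 1 lower with the block). The lower plasma cell marker had the lowest log2 fold change of all genes tested, -6.48, so that sum does not stand for each marker. These calls stand beside 12.0% of all genes tested called higher and 15.4% lower, or 20.7% and 21.0% with the block. The erythroid call without the block, Hbb-bs (edgeR adjusted p = 0.0447), was lost in 7 of the 10 fits that left out a library. The call of the plasma cell marker Sdc1 (edgeR adjusted p = 0.0339) was also lost in 7. The part of these cell types in the histone values was not tested.

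Of the 67 histone genes, 34 passed the filter on low counts and entered the test. Among the other 33, 6 had no count in any library and 27 had 2 to 143 counts in all. Near-identical sequence between the genes moved with this. The share of a gene's 50-base windows found in no other gene's transcript was 0% for 5 genes, Hist2h2aa1, Hist2h2aa2, Hist2h2bb, Hist2h3b and Hist2h3c1, and all 5 were listed at 0. The sixth gene at 0 was Hist1h2br, an H2B gene. Of the 14 genes with a share over 0 and up to 20%, 1 was tested, against 17 of 25 between 20% and 60% and 16 of 23 above. The sources used here do not state how reads that match several genes were counted, so the values of closely similar members are uncertain. Exons of 9 tested members also overlap another annotated gene. Hist1h1e and Hist1h2be share up to 450 bases on the same strand, Hist3h2a shares 708 with Trim17, and 7 tested H2A genes overlap a short predicted gene on the opposite strand that had 0 counts. Of all values between 1 and 20 counts, 68.4% were even numbers (71.6% of the histone values), so a count may not be an independent molecule.

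Levels between genes were compared as CPM per kilobase of annotated exon, averaged over the 10 libraries. The highest was Hist1h1c with 86.7, followed by Hist1h1b with 74.0, Hist1h2ae with 37.3, Hist1h4d with 36.4 and Hist1h2bc with 32.5. The median of the 34 tested genes was 3.79. On the same scale the tested variant histone genes, which are expressed outside S phase as well and mostly give polyadenylated RNA, had a median of 207. Order among these histone genes rests on annotated lengths, which differ widely (2620 bases for Hist2h2be, 473 for Hist1h2ab).

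GFP high was set against GFP low to ask how histone RNA differs between cells labelled quiescent and proliferating. In the edgeR quasi-likelihood test with Benjamini-Hochberg adjustment over 12772 genes, 6 of the 34 tested histone genes were lower in GFP high (17.6%) and 0 were higher. Over all genes tested, 15.4% were lower and 12.0% were higher, so the share of histone genes called lower was near the background. The 6 genes were Hist1h2ab, Hist1h3g, Hist1h2ae, Hist1h4d, Hist1h1b and Hist1h4i, none of class H2B. All 6 lie in the Hist1 cluster, as do 30 of the 34 tested genes. In such bulk samples, fewer cells that carry a transcript and less of it per cell cannot be told apart. The median log2 fold change of the 34 was -0.55, against 0.03 over all genes tested, and 26 of the 34 were negative (76.5%, against 47.1% of all genes). Without GFP low library 1 this median was -0.23, and without GFP high library 4 it was -0.37. By edgeR without adjustment, 7 were lower and 0 higher at p under 0.05, and DESeq2 called 6 lower and 0 higher after adjustment.

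Libraries with the same number deviate together from their group means, so the comparison was also made within pairs. With the replicate block in the edgeR fit, 11 histone genes were lower (32.4%, against 21.0% of all genes) and 1 was higher (20.7% of all genes). All 6 calls of the fit without the block were among these 12. The 5 further lower genes were Hist1h1a, Hist1h2bc, Hist1h2bj, Hist1h2bk and Hist2h2be, and the higher one was Hist1h1c. In 15 of the 34 genes (44.1%) the GFP high library was lower than its GFP low partner in all 5 pairs, against 23.1% of all genes tested, and 2 genes, Hist1h1c and Hist1h2bf, were higher in all 5 (22.9% of all genes). Without pairing, 3 genes had all GFP high libraries below all GFP low ones (8.82%, against 12.6% of all genes) and 0 had them all above (7.92%).

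**Figure D1:**
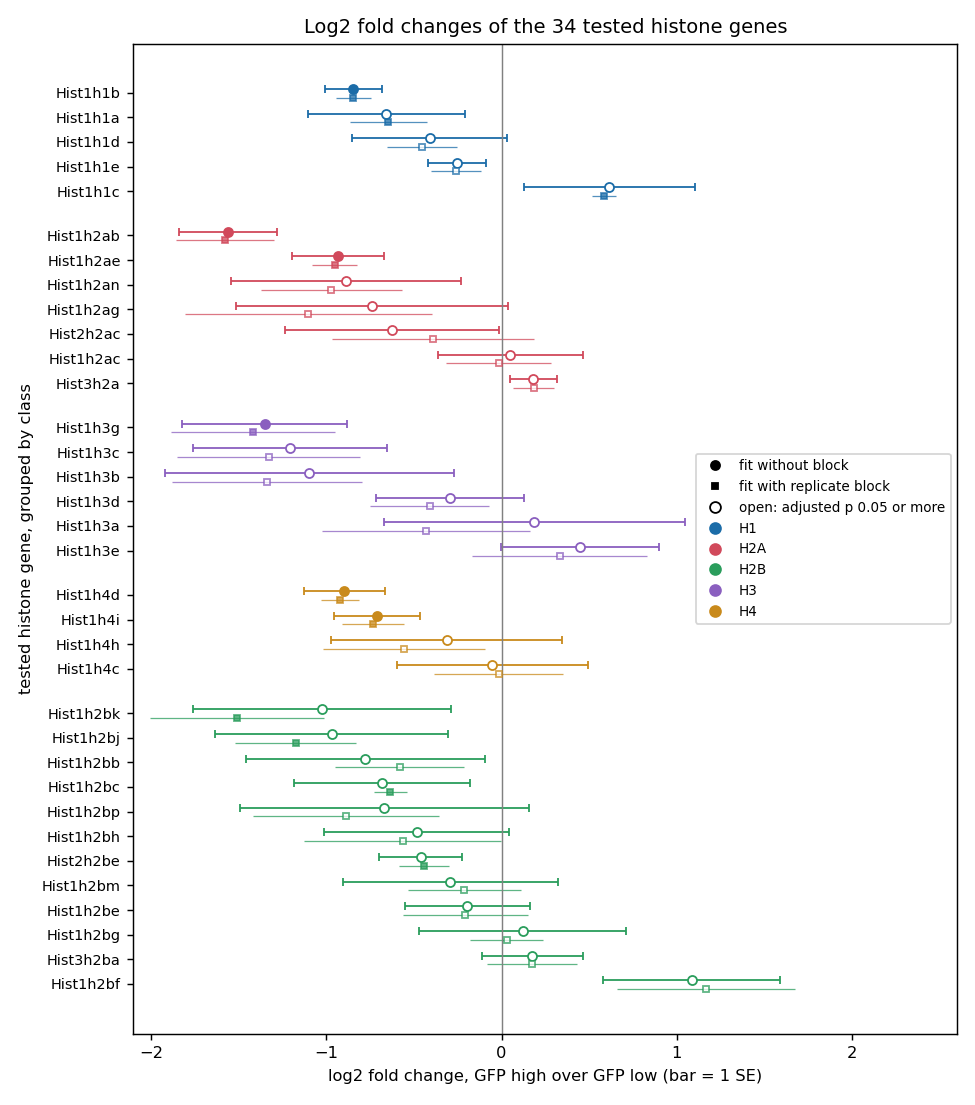
Log2 fold change (GFP high over GFP low, horizontal axis, bars 1 SE) of the 34 tested histone genes, grouped by class on the vertical axis, in the fit without the block (circles) and with the replicate block (squares); filled symbols have an adjusted p under 0.05. Most symbols lie left of 0, with Hist1h2ab lowest at -1.56, while Hist1h1c at 0.62 and Hist1h2bf at 1.08 lie to the right.

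The linker histones, which bind DNA between nucleosomes, held 42.2% to 59.9% of the histone gene counts of a library, more than any other class, and differed in direction. Hist1h1b (ENSMUSG00000058773, chromosome 13, 21779883 to 21780625) fell in GFP high. It had 40.9, 49.1, 39.8, 27.6 and 39.1 CPM in GFP high libraries 1 to 5 and 60.5, 94.6, 73.6, 63.4 and 60.9 CPM in GFP low libraries 1 to 5. Every GFP high library was below every GFP low one. The means were 39.3 ± 7.71 and 70.6 ± 14.4 CPM (SD, n = 5 each), and on the log2 scale the change was -0.84 ± 0.16 (SE; edgeR adjusted p = 0.00222). It was -0.79 in libraries 1 to 3 alone and -0.92 in libraries 4 and 5 alone, and passed the test in both.

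Hist1h1c (ENSMUSG00000036181, chromosome 13, 23738808 to 23740367) went the other way within every pair. Its GFP high libraries 1 to 5 had 237, 266, 193, 59.5 and 63.4 CPM, and its GFP low libraries 158, 159, 132, 46.1 and 40.1 CPM. Libraries 4 and 5 were far below libraries 1 to 3 in both groups, so the groups overlapped although 5 of 5 pairs were higher in GFP high. The fit without the block gave 0.62 ± 0.49 (edgeR adjusted p = 0.381). With the replicate block it was 0.59 ± 0.07 (edgeR adjusted p = 2.79e-05), and it passed within libraries 1 to 3 (0.66, adjusted p = 0.00607) and within libraries 4 and 5 (0.50, adjusted p = 0.0197). This gene alone took up 21.8% to 42.4% of the histone gene counts of a GFP high library and 11.5% to 26.1% of those of a GFP low library.

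Of the other H1 genes, Hist1h1e had 21.5 to 39.2 CPM in GFP high and 29.0 to 43.1 CPM in GFP low, with a log2 fold change of -0.25 ± 0.17 (edgeR adjusted p = 0.284). Its value was 0.01 in libraries 1 to 3 alone and -0.63 in libraries 4 and 5 alone, where it passed (adjusted p = 0.034). Hist1h1a and Hist1h1d had -0.66 and -0.41 and did not pass, though Hist1h1a passed with the replicate block (-0.65, edgeR adjusted p = 0.0308). Hist1h1t, the testis H1 gene, had 11 counts in all. Summed over the class, H1 had 248 ± 116 CPM for GFP high and 234 ± 76.1 for GFP low (SD, n = 5 each). This sum was lower in GFP high in 2 of 5 pairs. Without Hist1h1c, the gene seen to be higher in every pair, the sums were 84.2 ± 21.6 and 128 ± 21.9 CPM. They were lower in GFP high in 5 of 5 pairs, but the choice of the gene left out rests on these same values.

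**Figure D2:**
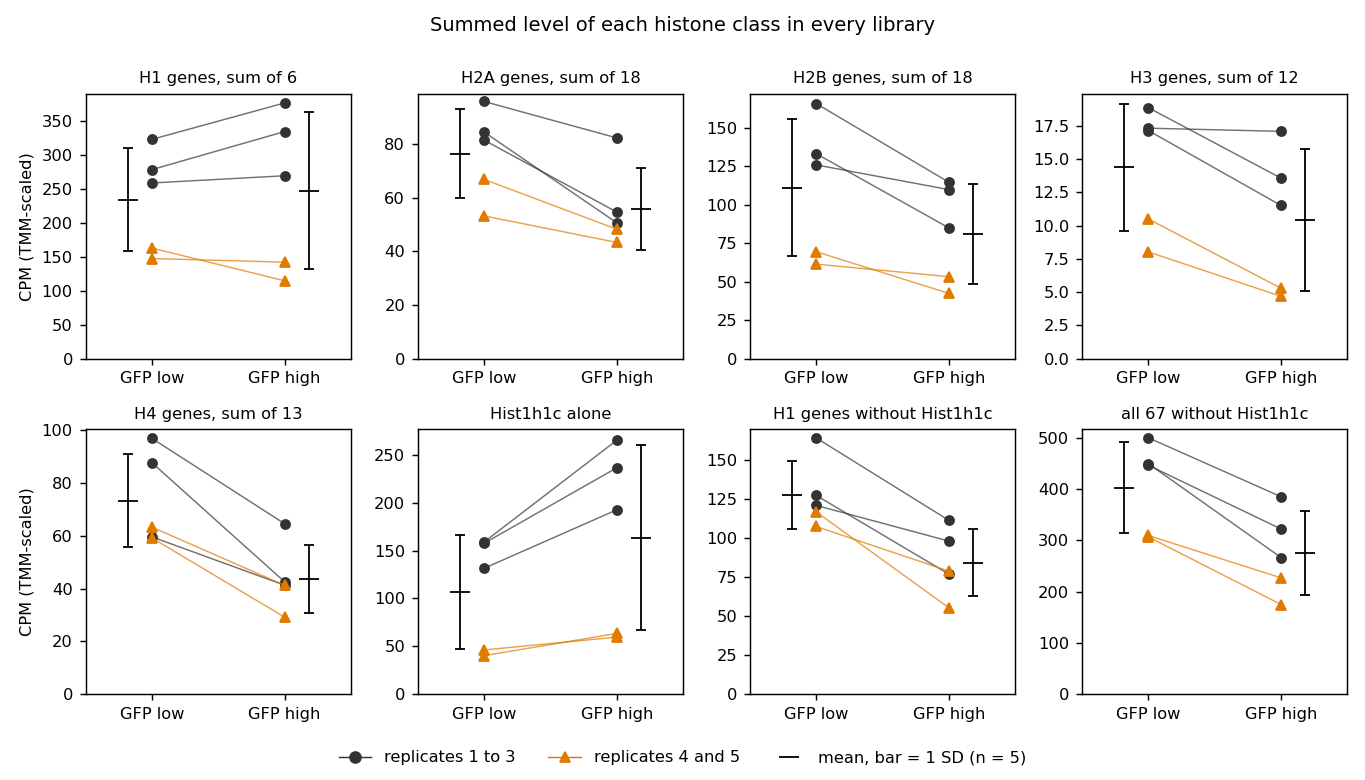
Summed CPM (vertical axes, from 0) of each histone class, of Hist1h1c alone, of H1 without it and of all 67 genes without it, in GFP low and GFP high; each line joins libraries of the same number, and short bars give mean ± 1 SD of 5 libraries. Libraries 4 and 5 (triangles) lie low in most panels, and only the lines of Hist1h1c all rise from GFP low to GFP high.

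H2A genes encode a core histone that pairs with H2B in the nucleosome. Hist1h2ab (ENSMUSG00000061615, chromosome 13, 23751126 to 23751598) had the lowest log2 fold change of the tested histone genes. It had 2.33, 2.44, 1.89, 2.02 and 1.12 CPM in GFP high libraries 1 to 5 and 7.24, 6.50, 6.0, 4.56 and 4.74 CPM in GFP low, from 13 to 32 and 58 to 101 counts. No GFP high value reached the lowest GFP low value. The log2 fold change was -1.56 ± 0.28 (edgeR adjusted p = 0.00138), with -1.54 in libraries 1 to 3 alone and -1.56 in libraries 4 and 5 alone.

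Hist1h2ae (ENSMUSG00000069272, chromosome 13, 23570517 to 23571220) had 18.7, 30.3, 14.3, 12.5 and 14.6 CPM in GFP high and 32.0, 49.0, 40.7, 23.2 and 27.4 CPM in GFP low. GFP high library 2 lay above GFP low libraries 4 and 5, while every pair was lower in GFP high. Its change was -0.93 ± 0.26 on the log2 scale (edgeR adjusted p = 0.0191). Leaving out GFP high library 3 ended the call (adjusted p = 0.0513), as did leaving out GFP low library 2 (adjusted p = 0.0586). Hist3h2a, an H2A gene of the Hist3 cluster, gave close values: 19.97 to 27.2 CPM in GFP high and 17.6 to 24.3 CPM in GFP low, with 0.18 ± 0.13 (edgeR adjusted p = 0.337). The other 4 tested H2A genes had log2 fold changes of -0.89 to 0.05 and did not pass. The class sum was 55.9 ± 15.4 CPM in GFP high and 76.5 ± 16.6 in GFP low, lower in 5 of 5 pairs.

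H3 genes encode the core histone whose tail carries many of the known modifications, and their counts were the lowest of the classes. Hist1h3g (ENSMUSG00000099517, chromosome 13, 23535422 to 23535951) was counted 15, 9, 10, 2 and 6 times in the GFP high libraries and 22, 39, 18, 14 and 18 times in the GFP low ones. In CPM these were 1.09, 0.784, 0.701, 0.156 and 0.519 against 1.58, 2.76, 1.74, 1.10 and 1.22, so the groups came close and did not overlap. Its log2 fold change was -1.35 ± 0.47 (edgeR adjusted p = 0.0493). The call sat at the threshold: it was lost when any 1 library other than GFP high library 1 was left out (adjusted p up to 0.144). Hist1h3c, another H3 gene, had 0.210 to 2.35 CPM in GFP high and 1.08 to 3.49 CPM in GFP low (-1.21 ± 0.55, adjusted p = 0.126), and passed only without GFP high library 2 (-1.77, adjusted p = 0.0322). Hist1h3d had -0.29 ± 0.42, and Hist1h3a had 0.19 ± 0.86, with 0 to 5.18 CPM in GFP high and a value of -0.43 with the replicate block. The class sum was 10.4 ± 5.36 CPM in GFP high and 14.4 ± 4.79 in GFP low, lower in 5 of 5 pairs.

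H4 genes encode the core histone that pairs with H3. Hist1h4d (ENSMUSG00000061482, chromosome 13, 23581598 to 23582735) had 19.0, 44.96, 26.9, 22.3 and 31.7 CPM in GFP high and 37.2, 70.7, 63.8, 47.8 and 49.9 CPM in GFP low. All 5 pairs were lower in GFP high, and only GFP high library 2 reached the GFP low range. On the log2 scale it changed by -0.90 ± 0.23 (edgeR adjusted p = 0.0124). It was -0.89 in libraries 1 to 3 alone (adjusted p = 0.0673) and -0.88 in libraries 4 and 5 alone (adjusted p = 0.00474).

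Hist1h4i (ENSMUSG00000060639, chromosome 13, 22040636 to 22041362) had 10.4, 6.45, 8.35, 4.52 and 6.32 CPM in GFP high and 13.1, 13.0, 14.8, 8.33 and 9.95 CPM in GFP low. Its groups overlapped through GFP high libraries 1 and 3, and each pair was lower in GFP high. The log2 fold change was -0.71 ± 0.24 (edgeR adjusted p = 0.0463), and the call was lost when any 1 library other than GFP high library 1 and GFP low library 4 was left out (adjusted p up to 0.114). Hist1h4h and Hist1h4c had -0.31 and -0.05 and did not pass. The sum of the H4 genes was 43.7 ± 12.9 CPM in GFP high and 73.4 ± 17.7 in GFP low, lower in 5 of 5 pairs. Hist1h4d alone had means of 29.0 and 53.9 CPM. Most of this sum and of its difference is therefore that gene, and the sum does not stand for each H4 gene.

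**Figure D3:**
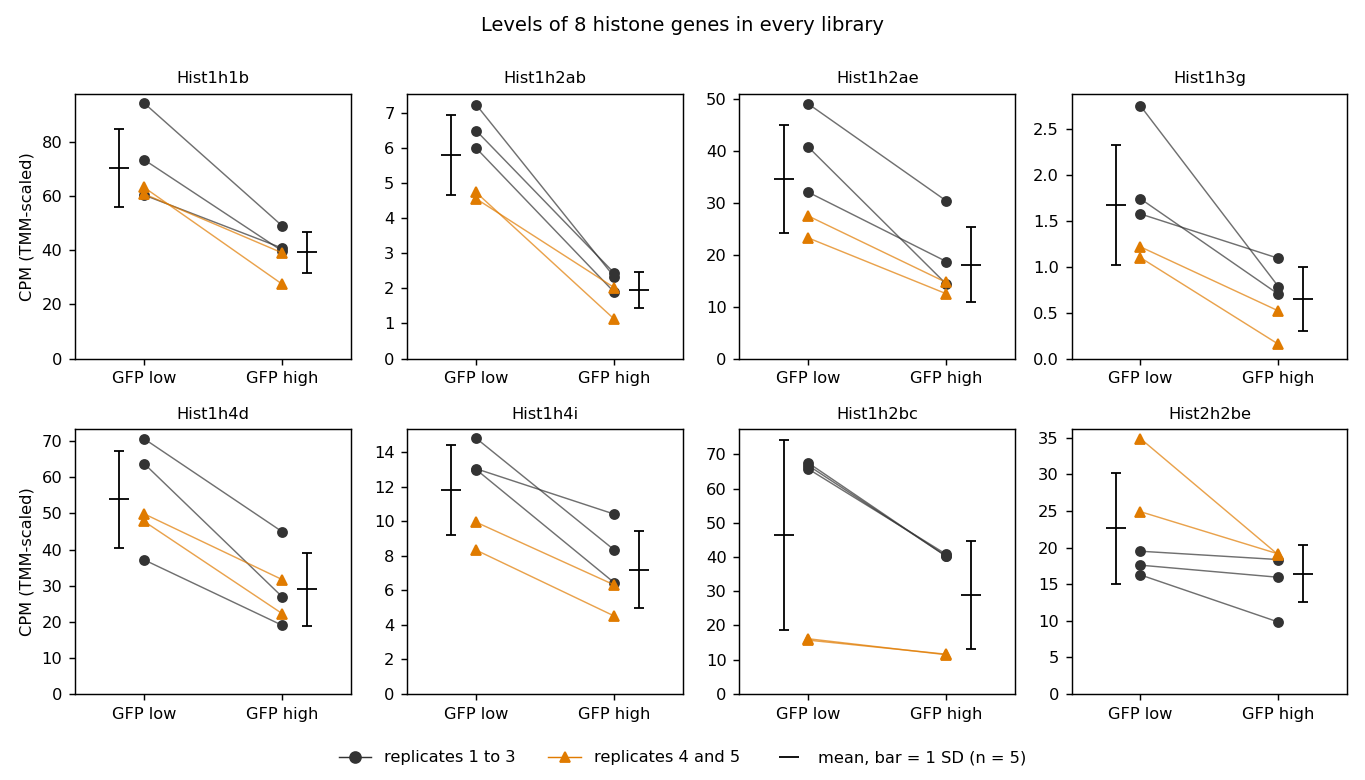
CPM (vertical axes, from 0) of the 6 histone genes called lower in GFP high and of 2 H2B genes that were called lower with the replicate block, in every library; lines join libraries of the same number and short bars give mean ± 1 SD of 5. Every line falls from GFP low to GFP high, and for Hist1h2bc libraries 4 and 5 lie at 11.4 to 16.1 CPM, below all others.

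H2B genes are described apart because the mice carry a tagged H2B, and whether reads of the transgene were counted at a mouse H2B gene was not tested. Of the 18 H2B genes, 12 were tested. None passed in edgeR without the block, where 15.4% of all genes were lower and 12.0% higher. Of the 12, 0 had an unadjusted p under 0.05, and DESeq2 called 0. With the replicate block 4 of the 12 passed as lower (33.3%, against 21.0% of all genes). The median log2 fold change of the 12 without the block was -0.47, with 9 of 12 negative, and outside H2B it was -0.64, with 17 of 22 negative. The H2B sum was 115, 110, 85.0, 42.4 and 53.2 CPM in GFP high libraries 1 to 5 and 166, 126, 133, 69.5 and 61.4 CPM in GFP low. Each GFP high library was below its partner, and libraries 4 and 5 were below libraries 1 to 3 in both groups. The means were 81.0 ± 32.6 and 111 ± 44.5 CPM (SD, n = 5 each), a log2 ratio of -0.46, and it was -0.46 in libraries 1 to 3 alone and -0.45 in libraries 4 and 5 alone.

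Hist1h2bc (ENSMUSG00000018102, chromosome 13, 23684199 to 23692908) was the H2B gene with the highest level. Its GFP high libraries 1 to 5 had 40.2, 40.8, 40.3, 11.4 and 11.6 CPM, and the GFP low ones 67.5, 65.7, 66.7, 16.1 and 15.7 CPM. Within each set of libraries the groups lay apart, while across all 10 they overlapped. The log2 fold change was -0.68 ± 0.50 (edgeR adjusted p = 0.344) without the block and -0.63 ± 0.09 (edgeR adjusted p = 0.000169) with the replicate block. It was -0.70 in libraries 1 to 3 alone (adjusted p = 0.00139) and -0.48 in libraries 4 and 5 alone (adjusted p = 0.134).

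Hist2h2be (ENSMUSG00000068854, chromosome 3, 96221119 to 96223738), an H2B gene of the Hist2 cluster with a long annotated transcript, was high where Hist1h2bc was low. It had 18.4, 15.9, 9.82, 19.0 and 19.1 CPM in GFP high and 19.5, 17.6, 16.3, 34.9 and 24.9 CPM in GFP low. Libraries 4 and 5 were the highest in each group, and 5 of 5 pairs were lower in GFP high. Its log2 fold change was -0.46 ± 0.24 (edgeR adjusted p = 0.167) without the block, -0.44 (edgeR adjusted p = 0.0268) with the replicate block and -0.66 (adjusted p = 0.0351) in libraries 4 and 5 alone.

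Hist1h2bj and Hist1h2bk, which lie near each other in the Hist1 cluster, did not pass over the 10 libraries without the block and passed with it. Hist1h2bj had 5.47, 4.44, 2.03, 0.779 and 0.346 CPM in GFP high and 11.6, 5.37, 4.16, 2.04 and 2.44 CPM in GFP low (-0.97 ± 0.66, edgeR adjusted p = 0.306, and -1.17, adjusted p = 0.0158, with the replicate block). Hist1h2bk had 3.06, 0.523, 0.631, 0.156 and 0.173 CPM in GFP high and 3.37, 2.62, 1.74, 0.786 and 0.880 CPM in GFP low. GFP high library 1 stood far above the other 4 of its group. The log2 fold change of Hist1h2bk was -1.02 ± 0.74 (edgeR adjusted p = 0.329), and -1.51 with the replicate block (edgeR adjusted p = 0.0269). It was -2.26 without GFP high library 1 (edgeR adjusted p = 0.022) and -0.70 without GFP low library 1 (edgeR adjusted p = 0.544). In 9 of the 10 fits that left out a library, Hist1h2bk did not pass.

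Hist1h2bf had the highest log2 fold change of all tested histone genes and did not pass. It was counted 19, 21, 18, 8 and 10 times in the GFP high libraries and 13, 12, 4, 6 and 2 times in the GFP low ones, or 0.623 to 1.83 against 0.135 to 0.932 CPM. The GFP high library was the higher one in each of the 5 pairs. Its log2 fold change was 1.08 ± 0.51 (edgeR adjusted p = 0.133), and 1.17 with the replicate block (edgeR adjusted p = 0.0827).

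The remaining tested H2B genes passed in neither fit, and several changed sign between library sets. Hist1h2bg had 2.18 to 22.3 CPM in GFP high and 3.38 to 22.3 CPM in GFP low, with a log2 fold change of 0.12 ± 0.59 that turned negative without any of 4 single libraries (GFP high 2 or 3, GFP low 4 or 5; lowest -0.13). Hist1h2bb (-0.78 ± 0.68), Hist1h2bp (-0.67 ± 0.82), Hist1h2bh (-0.48 ± 0.53), Hist1h2bm (-0.29 ± 0.61) and Hist1h2be (-0.20 ± 0.36) were negative. Without GFP low library 1, Hist1h2bp was 0.16 and Hist1h2bm 0.39, so both signs rest on that library. Hist3h2ba, of the Hist3 cluster, had 3.89 to 9.06 CPM in GFP high and 4.07 to 8.32 CPM in GFP low (0.18 ± 0.29). Among members that failed the filter, Hist1h2bn had the most counts: GFP high libraries 1 to 5 held 12, 23, 4, 2 and 4, and GFP low libraries 60, 23, 8, 0 and 7.

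By cluster, the Hist1 genes held all 6 calls, with 30 of 54 tested and a median log2 fold change of -0.66. In Hist2, 2 of 10 genes were tested (Hist2h2ac -0.62 and Hist2h2be -0.46) and 5 of the 10 had no count. Both Hist3 genes were tested, at 0.18 each, and their sum was 29.1 ± 4.27 CPM for GFP high and 25.6 ± 2.92 for GFP low (SD, n = 5 each). Hist4h4 was not tested, with 118 counts in all. Differences between the clusters were not tested. Over all 67 genes, the sum was 439 ± 176 CPM in GFP high and 510 ± 147 in GFP low, lower in 5 of 5 pairs. Without Hist1h1c, again left out on its own values, it was 275 ± 82.0 and 403 ± 89.0 CPM, also lower in 5 of 5.

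Many histone genes also lay at another level in libraries 1 to 3 than in libraries 4 and 5. In 16 of the 34 tested genes (47.1%) the mean CPM of libraries 1 to 3 was over 2-fold above that of libraries 4 and 5 in both GFP groups, against 2.13% of all genes tested. Among genes with a mean of 10 CPM or more this held for 4 of 10 histone genes (1.09% of all such genes), and below 10 CPM for 12 of 24 (4.55%). The sets were read off these libraries and the labels do not name them, so the counts are descriptions with no test. The median ratio was 2.55 in GFP high and 2.34 in GFP low, against 0.98 and 1.01 over all genes. The 16 comprised 8 of 12 tested H2B genes, 3 of 5 H1, 2 of 6 H3, 2 of 4 H4 and 1 of 7 H2A genes. All 16 lie in the Hist1 cluster, as do 30 of the 34 tested genes.

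Hist1h1c was 3.78-fold higher in libraries 1 to 3 than in 4 and 5 in GFP high and 3.47-fold in GFP low, and Hist1h2bg 5.08-fold and 3.83-fold. At 2.01-fold in GFP high, Hist1h2bf lay just inside the limit, while Hist1h3c, at 1.85-fold in GFP high and 2.30-fold in GFP low, lay just outside. Hist1h1b (1.30 and 1.23), Hist1h4d (1.12 and 1.17) and Hist3h2a (0.98 and 1.19) were nearly level, and Hist2h2be (0.77 and 0.59) was lower in libraries 1 to 3. None of the 6 genes called lower without the block was among the 16. With the replicate block, 4 of the 16 and 7 of the other 18 were called lower, against 21.0% of all genes. The median log2 fold change between the sorts was close in both, -0.53 in the 16 and -0.55 in the other 18, while the median SE was 0.64 and 0.32. With the replicate block the median SE was 0.37 and 0.29.

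The same genes were counted by how far their transcripts are annotated past the stem-loop. Of 14 tested genes whose annotated transcripts end fewer than 100 bases past the site, 9 were among the 16, and of 15 with 100 bases or more, 4 were. Of the 5 tested genes with no site found, 3 were. These are counts over genes that share libraries and sequence, and no test was made. Marker sums also lay apart between the sets. For plasma cell markers the means of libraries 1 to 3 and of 4 and 5 were 990 and 636 CPM in GFP high and 748 and 518 CPM in GFP low, and for erythroid markers 34.5 and 22.0 against 15.6 and 13.0 CPM. Libraries 4 and 5 were the higher ones for monocyte and macrophage markers, with 87.9 and 116 CPM in GFP high and 48.8 and 80.9 CPM in GFP low, for neutrophil markers (6.34 and 8.40, then 3.62 and 6.22 CPM) and for B-cell progenitor markers (11355 and 12653, then 8798 and 9403 CPM). Their part in the histone values was not tested. H3f3b, the gene of a variant H3 outside these clusters, had ratios of 1.91 and 1.55.

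**Figure D4:**
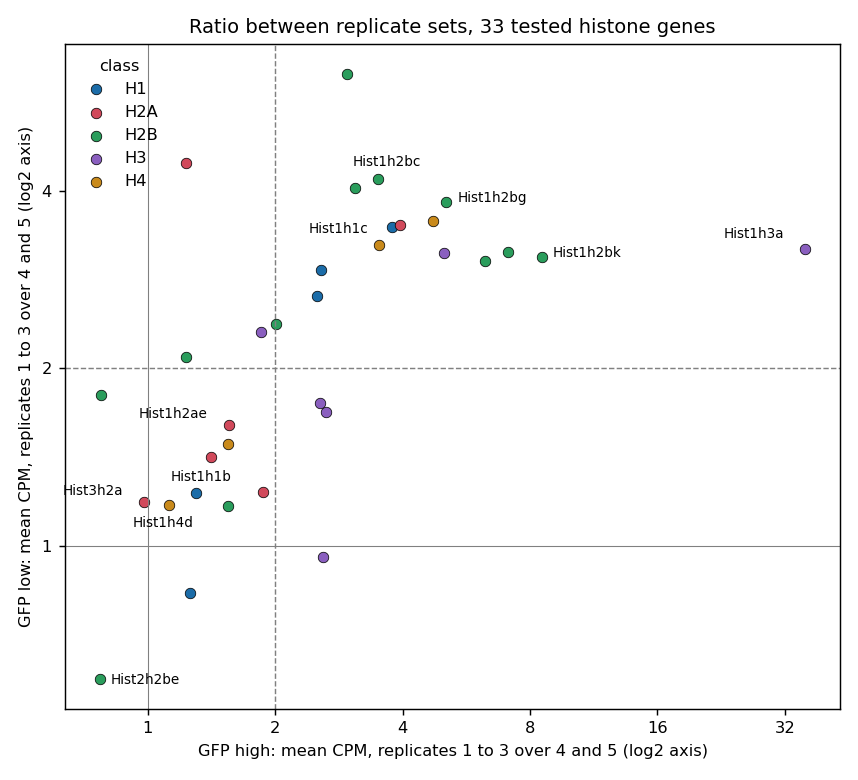
Ratio of mean CPM in libraries 1 to 3 over libraries 4 and 5 in GFP high (horizontal, log2 axis) and GFP low (vertical, log2 axis) for 33 tested histone genes, coloured by class; dashed lines mark 2-fold and solid lines a ratio of 1. The 16 genes of the upper right part include 8 H2B genes, and Hist1h1b, Hist1h4d and Hist3h2a lie near 1; Hist1h2ag, with no count in GFP high libraries 4 and 5, has no ratio.

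H2A and H2B genes often start from a shared stretch of DNA in opposite directions, and 12 such pairs (24 genes) started within 500 bases of each other. Both genes were tested in 5 pairs, and their ratio was compared between the sorts to ask whether partners that share this stretch changed alike. The stretch between Hist1h2ae and Hist1h2bg is shown because these partners differed in level and in fold change (chr13:23571221-23571395, plus strand, RefSeq GRCm38.p6, motifs in capitals).
Hist1h2ae to Hist1h2bg: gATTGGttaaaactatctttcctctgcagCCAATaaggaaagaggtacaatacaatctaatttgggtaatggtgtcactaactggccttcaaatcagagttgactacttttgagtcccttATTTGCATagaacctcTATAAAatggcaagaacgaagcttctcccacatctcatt
These 175 bases hold the octamer, CCAAT on each strand and TATAAA. Hist1h2ae fell (-0.93) and Hist1h2bg had 0.12. The log2 ratio of Hist1h2ae to Hist1h2bg was 0.85 ± 1.13 for GFP high and 1.79 ± 0.84 for GFP low (SD, n = 5 each), lower in GFP high in 5 of 5 pairs. A two-sided exact permutation test over libraries gave p = 0.175 for this pair, and adjusted over the 5 pairs the values ran from p = 0.661 to p = 0.873. With libraries of the same number kept together, a two-sided exact permutation test gave p = 0.0625, the smallest that 5 pairs of libraries allow, and adjusted values of p = 0.312 to p = 0.938. No pair of genes passed in either test, and the test within pairs could not have passed. The other 4 pairs were Hist2h2ac with Hist2h2be, Hist1h2an with Hist1h2bp, Hist1h2ag with Hist1h2bj, and Hist1h2ac with Hist1h2bc.

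Genes of the machinery that makes, processes and destroys histone RNA were read from the same fit, together with genes of histone chaperones and import. Of these 48 genes, all tested, 21 were lower in GFP high (43.8%, against 15.4% of all genes). Another 2 were higher (4.17%, against 12.0%) and 25 did not pass. With the replicate block 25 were lower (52.1%, against 21.0% of all genes) and 3 higher (6.25%, against 20.7%). Their median log2 fold change was -0.25, against 0.03 over all genes. Of the 21 lower without the block, 9 were among the 13 genes of chaperones and import. In the list for transcription at the histone locus body, 3 of 8 were lower (37.5%, against 15.4% of all genes). Those 3 were Gapdh, Ldha and Nme1, subunits of an OCT1 coactivator that are better known as metabolic enzymes. Npat itself had 62.2, 84.3, 75.3, 63.5 and 64.8 CPM in GFP high and 78.7, 96.1, 87.4, 70.4 and 69.1 CPM in GFP low. Each pair was lower in GFP high though the groups overlapped, and the log2 fold change of Npat was -0.20 ± 0.12 (edgeR adjusted p = 0.239), passing with the replicate block (-0.20, edgeR adjusted p = 0.0404). Casp8ap2 was also lower with the block. Pou2f1, the gene of OCT1 itself, went the other way, higher in 5 of 5 pairs at 0.30 ± 0.11 (edgeR adjusted p = 0.064, and 0.0112 with the replicate block).

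For 3' end processing, 5 of 14 were lower (35.7%, against 15.4% of all genes) and 0 higher (12.0% of all genes). Ncbp2 joined them with the replicate block (42.9%, against 21.0% of all genes). Slbp, which binds the stem-loops shown above, had 295, 290, 303, 259 and 258 CPM in GFP high and 421, 490, 518, 407 and 378 CPM in GFP low. No library of one group reached the other. Its log2 fold change was -0.66 ± 0.10 (edgeR adjusted p = 0.000425). Cstf2, a cleavage factor subunit used at histone and poly(A) sites, also fell (-0.64 ± 0.09), as did Srrt, Ncbp1 and Sympk. Lsm10 and Lsm11, which encode proteins particular to the U7 particle that directs the cut, had 0.14 ± 0.13 and -0.25 ± 0.20 and did not pass.

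Of 13 decay genes, 4 were lower (30.8%, against 15.4% of all genes) and 2 higher (15.4%, against 12.0% of all genes). Eri1, the exonuclease that trims the stem-loop end, fell by 0.58 ± 0.08 on the log2 scale, and Lsm2, Lsm4 and Lsm7, subunits of rings that bind RNA ends, also fell. Tut7, a terminal uridylyltransferase, rose (0.34 ± 0.09, edgeR adjusted p = 0.0179), and the 5' exonuclease gene Xrn1 rose at the threshold (0.31 ± 0.11, edgeR adjusted p = 0.0474). Of the single libraries left out in turn, only GFP high 4 or 5 or GFP low 1 left the Xrn1 call in place (adjusted p up to 0.104). Among 13 genes of histone chaperones and import, 9 were lower (69.2%, against 15.4% of all genes) and 0 higher, with Asf1a as the tenth under the replicate block, a larger count than in the other lists, though the lists were not tested against each other. Of the 9, Supt16 lay at the threshold (edgeR adjusted p = 0.0498) and was lost in 8 of 10 fits that left out a library, with only GFP high 1 or GFP low 4 left out keeping it. The subunits of chromatin assembly factor 1 both fell: Chaf1b had 72.4 to 87.6 CPM in GFP high and 163 to 203 CPM in GFP low (-1.18 ± 0.09, edgeR adjusted p = 6.95e-06), and Chaf1a had -1.10 ± 0.09. Nasp and Asf1b, which escort new H3 and H4, had -0.96 and -1.01.

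Variant histone genes outside the clusters gave a comparison within the histone family. Of 11, 10 were tested, 5 were lower in GFP high (15.4% of all genes were) and 0 higher. H2afz, the gene of H2A.Z, had 396 to 456 CPM in GFP high and 841 to 1090 CPM in GFP low (-1.16 ± 0.09, edgeR adjusted p = 6.95e-06). H2afx (-0.79), H2afv (-0.74), H1fx (-0.89) and the centromeric H3 gene Cenpa (-0.91) fell as well. The H3.3 genes H3f3a and H3f3b had -0.10 and 0.04, and H1f0, a linker histone known from resting cells, had -0.04 ± 0.17, none passing.

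**Figure D5:**
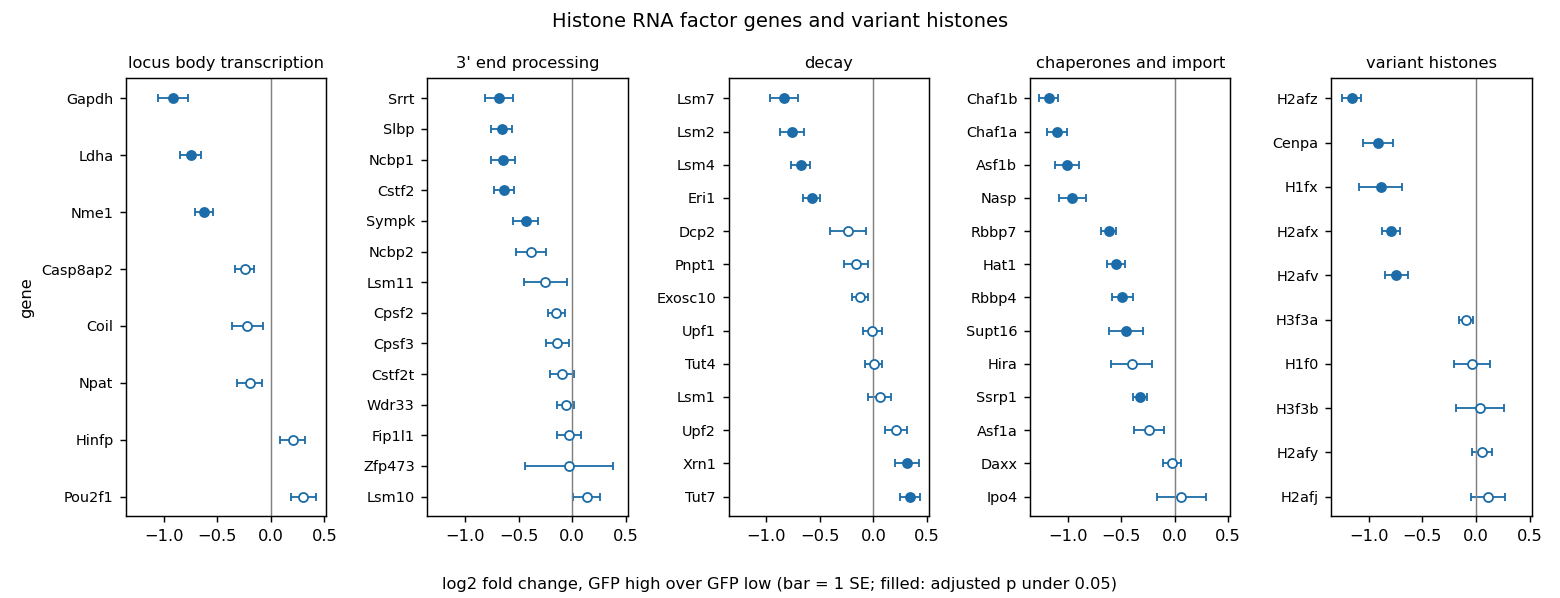
Log2 fold change (GFP high over GFP low, horizontal axes, bars 1 SE) for 4 lists of histone factor genes and the tested variant histones. Each line is 1 gene, and filled symbols have an adjusted p under 0.05. The lists cover locus body transcription, 3' end processing, decay, and histone chaperones and import. Most filled symbols lie left of 0, with Chaf1b and H2afz lowest at -1.18 and -1.16, and Tut7 and Xrn1 are the filled symbols to the right.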

How the data were processed

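RNA of 10 libraries of bone marrow B-cells (5 GFP high, 5 GFP low) was measured. The deposited table holds raw counts per Ensembl gene, whole numbers with no normalization. Per the labels, polyadenylated RNA was extracted with a column kit and amplified with SMART-Seq v4. The submitters' processing notes name mm10, STAR, featureCounts and DESeq2, without role or version. Strand use and the treatment of reads with several matches are not given in the sources used here. Groups and replicate numbers came from the titles.

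Of the identifiers, 99.8% matched GENCODE M21 (GRCm38, the build mm10), and 3 histone pseudogenes (34 counts) were left out. The members, gene lists, naming rule and tests were chosen with earlier results of these data known. In the decay list, Zcchc6 and Zcchc11 appear under their annotated symbols Tut7 and Tut4. Counts were tested in R 4.3.3 with edgeR 4.0.16 (filterByExpr, TMM, quasi-likelihood test, no covariates), with Benjamini-Hochberg adjustment over 12772 genes and a threshold of 0.05. DESeq2 1.42.0 served as an alternative. SE is the log2 fold change divided by the root of the F statistic. CPM use TMM-scaled library sizes. The test was checked on simulated counts. No pair of libraries of a group agreed within sampling noise (lowest chi-square per gene, 7.33).

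Named were all members past the threshold, the 2 with the lowest p and the 2 with the highest CPM of each class, all tested H2B genes, and the untested member with the most counts. Of the factor genes, Slbp, Npat and the 2 with the lowest p of each list were named. Other genes named were chosen after their values were seen.

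Same-numbered libraries of the 2 groups deviated together from their group means over all tested genes (correlations of 0.248 to 0.353 in 5 of 5 pairs), and each library matched its own number best. The margin was small for libraries 4 and 5. GFP high 5 with GFP low 4 had 0.321 and GFP high 4 with GFP low 5 had 0.292, against 0.349 and 0.353 for their own numbers. Both unlike values lay above the 0.248 of pair 2. Between libraries 1 to 3 and libraries 4 and 5 the correlations were negative, so the split of the 2 sets is part of this agreement. The numbers were taken as pairs from these data and not from a label. Fits with the replicate number as a block are given where they change a call. Other normalizations, filters, DESeq2 and leaving out single libraries were also tried. Fits within libraries 1 to 3 and within 4 and 5 were added after seeing the data.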

Additional observations from a re-analysis of the deposited data

Results flagged for a closer look

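Of 80 groups of 5 libraries examined (the named histone and factor genes and the class sums in each sort), 2 had a single library far from the other 4, where chance flags about 1 in 20 groups. Hist1h2bk, an H2B gene, had 3.06 CPM in GFP high library 1 against 0.156 to 0.631 CPM in the other 4. Hist1h2bp, also an H2B gene, had 7.10 CPM in GFP low library 1 against 1.10 to 2.12 CPM in the other 4. Both are libraries numbered 1, and the cause was not tested.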

How the results depend on the processing

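With the replicate block, the histone genes lower in GFP high were 11 instead of 6, those higher 1 instead of 0, the H2B genes lower 4 instead of 0, and all genes higher 2645 instead of 1538. The pairing changed no direction among the named genes except Hist1h3a (0.19 to -0.43), and of the 48 factor genes it added Npat, Casp8ap2, Ncbp2 and Asf1a as lower and Pou2f1 as higher. Without one library each, the lower histone genes were 3 to 7 (3 without GFP high library 3 or GFP low library 2), the higher ones 0, the lower H2B genes 0 to 1 (1 without GFP high library 1), and the median log2 fold change -0.73 to -0.23. The sum outside H2B was lower in GFP high in 3 of 5 pairs. The log2 ratio of this sum was -0.16 and ran from -0.35 to 0.00266, reversed without GFP high library 4. That of all members was -0.22 (-0.40 to -0.06) and that of H2B -0.46 (-0.61 to -0.27).

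Factor genes higher in GFP high were 2, and 1 to 3 without one library. They were 1 with no filter, 1 in libraries 1 to 3 alone and 1 in libraries 4 and 5 alone. In those 2 sets the histone genes higher were 1 and 1 (Hist1h1c in both), and the H2B genes lower 1 and 1 (Hist1h2bc and Hist2h2be). Lower histone genes were 4 with RLE size factors, 4 with library totals only, 4 with no filter, 5 with a mean of at least 10 counts and 6 with DESeq2. Hist1h3g and Hist1h4i were lost under the first 3 of these.

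Reversed signs in libraries 4 and 5 alone were Hist1h2bb 0.14, Hist1h2be 0.56, Hist1h2bg -0.26, Hist1h2bh 0.0299, Hist1h2bm 0.00308 and Hist3h2ba -0.11, and in libraries 1 to 3 alone Hist1h1e 0.00645. Without one library each, Hist1h2bg ran from -0.13 (without GFP high library 2) to 0.49. Hist1h2bm ran from -0.71 to 0.39 and Hist1h2bp from -1.37 to 0.16, both highest without GFP low library 1, and Hist1h3a from -0.59 (without GFP high library 1) to 0.52. The cause was not tested. The filter on low counts left 33 of the 67 histone genes untested, each with at most 143 counts over the 10 libraries.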
